A study of Mus musculus with 214 samples.

Results

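The immediate early and AP-1 genes were taken as 10 gene symbols, namely Fos, Jun, Junb, Jund, Egr1, Ier2, Ier3, Myc, Maff and Klf6. All 10 were present among the 19540 genes of the Mgmt-/- data and among the 18647 genes of the WT data. They were read in bulk liver RNA from 3′ digital gene expression libraries, in which reads fall near the 3′ end of each transcript and carry molecular barcodes. All mice were on a C57BL6 background and homozygous for the RaDR and gpt reporter transgenes. The WT mice (RaDR+/+;GPT+/+) carried no further allele, and the Mgmt-/- mice (RaDR+/+;GPT+/+;Mgmt-/-) also lacked O6-methylguanine-DNA methyltransferase, the enzyme that removes methyl groups from the O6 position of guanine. Mice of both sexes were injected intraperitoneally with saline or with N-nitrosodimethylamine (NDMA), a methylating agent activated in hepatocytes. The NDMA doses were 3.5 mg/kg at postnatal day 8 and 7.0 mg/kg at postnatal day 15, and necropsies followed the second dose by 1 day, 2 days, 5 days, 10 weeks or 10 months. The saline and NDMA livers numbered 12 and 12, 7 and 8, 6 and 8, 8 and 8, and 12 and 13 at these times in Mgmt-/- mice. In WT mice they numbered 21 and 26, 8 and 8, 7 and 8, 8 and 8, and 10 and 13.

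The labels and the libraries were compared before any test. The Mgmt transcript had a median of 45.8 normalized counts (13.0 to 130) over 117 WT libraries and of 1.09 (0 to 9.67) over 96 Mgmt-/- libraries. Among the Mgmt-/- libraries, 2 labelled saline day 5 carried over 1000 normalized counts of Kap, a kidney transcript, against at most 13.9 in the other 94 Mgmt-/- libraries. Their albumin values were 525.9 and 161, against at least 29809 in those 94 libraries and at least 25256 in WT libraries, and all 5 hepatocyte markers were detected in both genotypes. These 2 libraries were dropped, and in them Klf6 stood at 51.8 and 81.1 and Ier3 at 28.2 and 19.6. In 2 WT NDMA day 1 libraries the sex-linked genes went against the labelled sex, and 4 WT NDMA libraries, 1 at each of the 4 later times, held fewer than 300000 reads. Depth ran from 713584 to 7740710 reads in Mgmt-/- libraries (median 2306714) and from 150038 to 4791649 in WT libraries (median 1700411), and each genotype was scaled by itself, so levels are not on 1 scale between genotypes.

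Immediate early genes are switched on within minutes of a stimulus without new protein synthesis, mostly through MAP kinases that act on serum response factor, its cofactors and the AP-1 and CREB proteins already present. Fos and Jun proteins pair through leucine zippers to form AP-1, which binds DNA at the AP-1 site and drives genes of proliferation, matrix turnover and inflammation. In the liver these genes are known for their rapid rise after partial hepatectomy and for their response to toxic injury.

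The promoters of the 4 members called at most times in Mgmt-/- livers are shown, from RefSeq on GRCm38.p6, as 250 bases before to 50 bases after the start site and read 5′ to 3′ along the gene's strand. Capitals mark matches to CACGTG, the E-box, or to TGACATCA, a 1-base variant of the cyclic AMP response element that was looked for only after the sequences had been read. The windows were chr4:95052173-95052472 on the minus strand for Jun, chr8:84978699-84978998 on the minus strand for Junb, chr12:85473640-85473939 on the plus strand for Fos and chr13:5861239-5861538 on the plus strand for Klf6.
Jun: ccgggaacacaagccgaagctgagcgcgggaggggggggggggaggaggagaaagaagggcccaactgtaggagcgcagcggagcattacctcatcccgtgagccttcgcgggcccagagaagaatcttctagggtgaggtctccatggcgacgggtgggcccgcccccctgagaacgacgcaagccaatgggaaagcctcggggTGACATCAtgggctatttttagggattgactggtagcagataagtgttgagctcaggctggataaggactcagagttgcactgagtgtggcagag
Junb: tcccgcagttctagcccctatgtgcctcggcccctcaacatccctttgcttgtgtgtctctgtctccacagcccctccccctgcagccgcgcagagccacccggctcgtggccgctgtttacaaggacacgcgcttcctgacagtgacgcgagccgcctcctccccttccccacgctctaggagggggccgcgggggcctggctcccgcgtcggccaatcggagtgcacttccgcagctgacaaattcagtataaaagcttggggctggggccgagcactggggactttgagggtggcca
Fos: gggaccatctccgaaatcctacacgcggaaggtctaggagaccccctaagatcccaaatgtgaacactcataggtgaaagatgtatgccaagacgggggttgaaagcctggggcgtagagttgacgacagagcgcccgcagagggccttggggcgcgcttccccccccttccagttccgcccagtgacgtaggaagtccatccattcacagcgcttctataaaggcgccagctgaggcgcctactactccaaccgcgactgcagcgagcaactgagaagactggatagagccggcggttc
Klf6: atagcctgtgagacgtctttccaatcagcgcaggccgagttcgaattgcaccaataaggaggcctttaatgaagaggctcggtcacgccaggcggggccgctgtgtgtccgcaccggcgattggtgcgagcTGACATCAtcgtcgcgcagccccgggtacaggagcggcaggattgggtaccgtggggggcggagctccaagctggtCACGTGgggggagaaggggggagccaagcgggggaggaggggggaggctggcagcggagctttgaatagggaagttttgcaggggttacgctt
TGACATCA began at base 206 of the Jun window, 45 bases before the start site, and 119 bases before that of Klf6, and an E-box began 43 bases before the start of Klf6. Over all 32851 promoter windows of this length, TGACATCA was found in 3.62% and CACGTG in 7.15%. The AP-1 site TGACTCA (5.20% of windows), the full cyclic AMP response element TGACGTCA (1.79%), the Egr site GCGTGGGCG (0.612%) and the CArG box bound by serum response factor (1.63%) were searched on both strands as well. None of these 4 was found in the windows of Jun, Junb, Fos or Klf6. RefSeq windows were at hand for 7 of the 10 members, 9 windows in all. Maff held TGACGTCA 29 bases, GCGTGGGCG 88 bases and CACGTG 191 bases before 1 of its starts. Before another of its starts it held TGACATCA, 45 bases away. A match describes letters only, and the absence of one says nothing about binding outside the window.

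A member was called when limma on log2(normalized count + 1) gave a Benjamini-Hochberg adjusted p under 0.05 over all genes tested and an absolute log2 fold change over 0.58. Genes with a mean below 5 in a comparison were not tested, and in bulk liver fewer cells of a type and less RNA per cell cannot be told apart. In Mgmt-/- livers 6 of the 9 members tested were called higher after NDMA at day 1, where 9.06% of all genes were called higher. Next came 4 of 7 members on day 2 (12.4% of all genes higher), 4 of 8 on day 5 (11.1%), 3 of 8 in week 10 (7.27%) and 2 of 7 in month 10 (4.75%). No member fell in these livers at any of the 5 times, where 8.64%, 7.5%, 6.71%, 3.88% and 2.99% of all genes were called lower. The median log2 fold change of the members tested was 0.77, 0.97, 0.83, 0.74 and 0.37 in turn, and that of all genes lay between -0.01 and 0.04. Maff was below the mean of 5 throughout, and Fos, Jund and Ier3 were below it at 2 times each. Some members reached that mean only through the NDMA group, where they were high, so that these counts and medians describe the members tested and support nothing further. At day 1 the saline and NDMA means were 3.77 and 10.9 normalized counts for Fos, 3.38 and 8.84 for Jund and 3.52 and 9.50 for Ier3. The same held for Fos on day 5 (3.16 and 15.4) and for Ier3 on day 5 (3.87 and 7.27) and in week 10 (3.44 and 11.9).

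**Figure D1:**
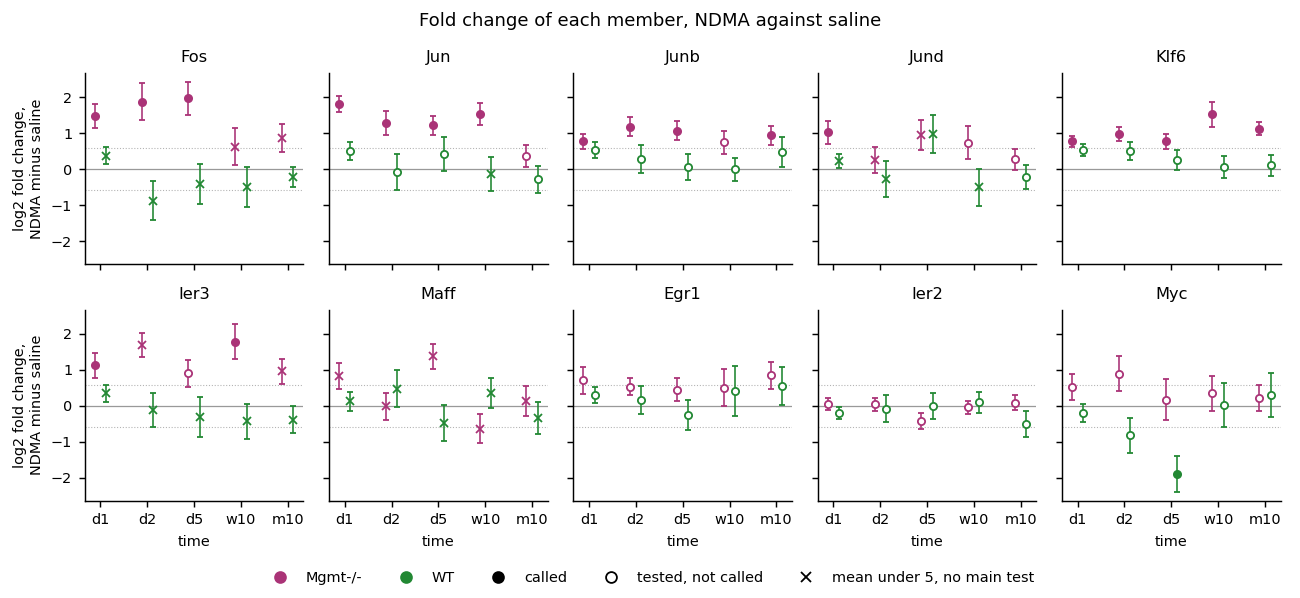
Log2 fold change of each member, NDMA against saline, with its standard error at 5 times after the second dose in Mgmt-/- and WT livers, from fits on log2(normalized count + 1). Filled points were called, open points were tested and not called, and crosses mark members with a mean under 5, drawn from the fit without that filter; the filled points in Mgmt-/- livers all lie above 0, and the single filled WT point, Myc at day 5, lies at -1.89.

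Fos encodes the partner of Jun in AP-1 and was among the members with the fewest reads. In Mgmt-/- livers at day 1 and day 5 it reached the mean of 5 only through the NDMA group. At day 1 in Mgmt-/- livers it ranged over 0, 2.42 and 10.0 normalized counts (lowest, median and highest) after saline and over 2.30, 8.77 and 25.1 after NDMA. The groups overlapped, with 5 of 12 NDMA-exposed livers above the highest saline liver and 11 above the saline median. The log2 fold change was 1.48 ± 0.33 (SE, adjusted p = 0.00071). At day 2 it ranged over 0, 2.06 and 27.1 after saline and over 5.41, 13.9 and 28.2 after NDMA. The saline value of 27.1 came from liver D389023, which also held the highest Jun, Junb and Myc of its group at 32.3, 41.8 and 24.9. The day 2 log2 fold change was 1.87 ± 0.51 (adjusted p = 0.0099) and stayed called with any 1 liver left out (1.53 to 2.29), while edgeR on the reads gave 1.43 (adjusted p = 0.11). At day 5 Fos ranged over 0, 2.99 and 5.75 after saline and over 4.19, 11.4 and 44.9 after NDMA. All but 1 of the 8 NDMA-exposed livers lay above the highest saline liver, with a log2 fold change of 1.97 ± 0.45 (adjusted p = 0.0025). Fos fell below the filter at week 10, with medians of 0.755 and 2.86, and at month 10, with medians of 1.35 and 2.78. The medians stood on few reads, with 4 (saline) and 14 (NDMA) per library on day 1, then 3 and 20, and then 4 and 17 on day 5, so values of single livers carry a wide counting error.

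Jun, the DNA-binding partner that can also pair with itself, rose at 4 of the 5 times in Mgmt-/- livers. At day 1 it ranged over 2.66, 8.17 and 20.5 normalized counts after saline and over 13.2, 27.6 and 64.4 after NDMA. Every NDMA-exposed liver lay above the saline median and 9 of 12 lay above the highest saline liver, and the log2 fold change was 1.81 ± 0.22 (adjusted p = 4.2e-08). At day 2 the values were 5.68, 7.51 and 32.3 against 13.1, 21.5 and 51.1 (1.27 ± 0.33, adjusted p = 0.0059). At day 5 they were 5.12, 10.9 and 18.1 against 16.1, 25.0 and 46.5 (1.22 ± 0.26, adjusted p = 0.0011). The saline and NDMA groups overlapped at both times, at day 5 through 2 of 8 NDMA-exposed livers. At week 10 the values were 3.46, 10.1 and 25.1 against 15.8, 29.1 and 39.2, and 7 of 8 NDMA-exposed livers exceeded every saline liver (1.52 ± 0.30, adjusted p = 0.0010). At month 10 Jun was at 3.56, 33.6 and 56.4 after saline and at 15.0, 34.3 and 67.5 after NDMA, with a log2 fold change of 0.37 ± 0.30 (adjusted p = 0.49). The saline median was thus 33.6 at month 10 and between 7.51 and 10.9 at the 4 earlier times, though times and library runs were only partly shared. The change at day 1 exceeded that at month 10 by 1.46 ± 0.39 on the log2 scale (limma contrast, adjusted p = 0.0065), a contrast in which 9.43% of all genes were called. No other member passed that contrast at any later time in Mgmt-/- livers, where 0.0198%, 0.426% and 5.78% of all genes differed between day 1 and day 2, day 5 and week 10. No member passed it in WT livers, where 1.76%, 2.41%, 2.13% and 1.92% of genes did.

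Junb encodes a Jun protein that can restrain Jun in the same dimers, and it rose at day 1, day 2, day 5 and month 10. At day 2 it ranged over 9.62, 13.3 and 41.8 normalized counts after saline and over 30.3, 42.6 and 53.5 after NDMA, with a log2 fold change of 1.18 ± 0.26 (adjusted p = 0.00099). At day 5 it ranged over 9.21, 16.4 and 30.0 against 19.1, 34.9 and 61.2 (1.07 ± 0.26, adjusted p = 0.0031). The groups overlapped at both times. At day 1 the values were 7.60, 25.7 and 112 against 18.9, 41.5 and 160 (0.77 ± 0.22, adjusted p = 0.0081). At month 10 they were 7.24, 34.1 and 109 against 24.2, 62.4 and 226 (0.93 ± 0.27, adjusted p = 0.023). The ranges of both times were wide and overlapped, and with treatment as the single term the adjusted p was 0.31 at day 1 and 0.084 at month 10. At week 10 Junb stood at 27.1, 114 and 252 after saline and at 145, 189 and 227 after NDMA, and the log2 fold change of 0.75 ± 0.32 did not pass (adjusted p = 0.14). After scaling to equal library totals it did (0.96, adjusted p = 0.027). With each liver left out in turn the week 10 change ran from 0.46 to 0.95. It was called only without saline liver D209003 (adjusted p = 0.045).

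Jund, the Jun family member found in resting cells, was tested at 3 times and rose at 1 of them. At that time, day 1, it reached the mean of 5 only through the NDMA group. At day 1 it ranged over 0.663, 2.15 and 9.17 normalized counts after saline and over 0.860, 6.44 and 24.7 after NDMA, with overlap, and the log2 fold change was 1.03 ± 0.32 (adjusted p = 0.015). At week 10 the estimate was 0.73 ± 0.46 (adjusted p = 0.36) and at month 10 it was 0.27 ± 0.28 (adjusted p = 0.61). The saline median was between 2.10 and 2.22 at the 3 early times, 5.52 at week 10 and 21.1 at month 10. Times and library runs were only partly shared, so these medians also differ by run. At day 1 alone the saline median was 1.27 in run 191212Eng and 7.51 in run 200803Eng. The Mgmt-/- livers of week 10 and month 10 were all in run 200803Eng. With run as a term, Jund in saline livers was higher at month 10 than at day 1 by 1.47 ± 0.40 (limma, adjusted p = 0.00095). Of all 10094 genes 5958 were called in that comparison. At day 2 and day 5, when Jund was too low to test, the NDMA medians were 2.99 and 4.93. Maff, a small Maf protein that binds related sites and lacks an activating domain, was at 0 in 7 of 12 saline livers at day 1 and in 4 of 6 at day 5. At day 5 it ranged over 0, 0 and 0.943 after saline and over 0.910, 2.07 and 4.16 after NDMA, below the level at which it could be tested. Maff had a median of 0 in saline livers on day 1 against 1.40 in NDMA livers. On day 2 the medians were 1.15 and 0.785, in week 10 they were 2.27 and 1.29, and in month 10 they were 4.17 and 3.87.

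Klf6, a zinc finger factor named among early growth response genes of injured liver, was the single member called at all 5 times in Mgmt-/- livers. At day 1 it ranged over 16.4, 30.1 and 36.6 normalized counts after saline and over 34.4, 50.3 and 73.4 after NDMA, with 10 of 12 NDMA-exposed livers above the highest saline liver (0.77 ± 0.15, adjusted p = 0.00012). At day 2 the values were 12.3, 31.8 and 51.5 against 42.6, 52.9 and 73.9 (0.97 ± 0.20, adjusted p = 0.00058). At day 5 they were 15.6, 33.9 and 42.6 against 42.2, 51.3 and 82.4 (0.77 ± 0.21, adjusted p = 0.0076). The lowest NDMA-exposed liver at day 5 lay within 1 count of the highest saline liver. At week 10 the values were 1.78, 20.2 and 22.7 against 22.5, 36.6 and 55.5 (1.52 ± 0.34, adjusted p = 0.0037). At month 10 they were 12.7, 17.9 and 28.0 against 29.0, 37.1 and 87.0 (1.12 ± 0.18, adjusted p = 8.4e-05). At month 10 the saline and NDMA groups did not overlap, and at week 10 a single NDMA-exposed liver reached into the saline range. The share of all genes without overlap was not counted, so this separation is a description only. The day 5 call was not made with the 2 libraries with kidney transcripts kept (0.51, adjusted p = 0.22), and without saline liver D389030 the change was 0.58 (adjusted p = 0.028), just under the threshold for size.

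**Figure D2:**
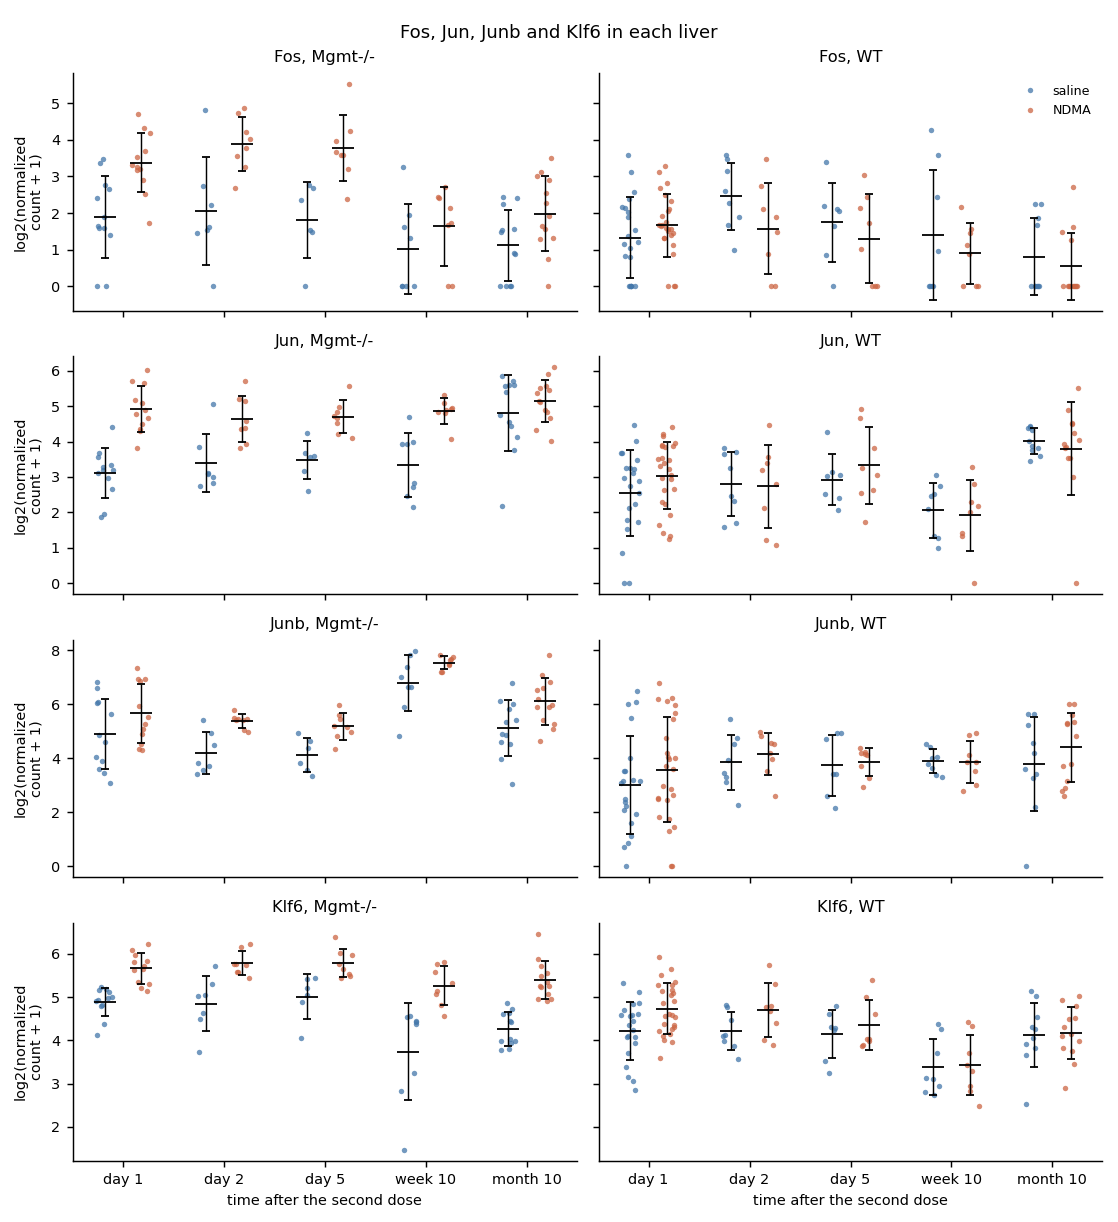
Fos, Jun, Junb and Klf6 in every liver as log2(normalized count + 1) at 5 times after the second dose, Mgmt-/- on the left and WT on the right, each genotype on its own scale. Points are livers and bars are the mean ± SD of the log2 values; in Mgmt-/- livers the saline and NDMA points of Klf6 do not overlap at month 10, while in WT livers the points of both treatments overlap at every time.

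Ier3, a short-lived stress protein that acts on cell survival, rose at day 1 and week 10. At these times and at day 5 it reached the mean of 5 only through the NDMA group. At day 1 it ranged over 0, 2.65 and 8.36 normalized counts after saline and over 1.72, 8.64 and 22.6 after NDMA (1.12 ± 0.35, adjusted p = 0.015). At week 10 it ranged over 0, 3.31 and 7.12 against 4.73, 9.20 and 23.8 (1.78 ± 0.49, adjusted p = 0.017). The groups overlapped at both times, and without NDMA liver D209029 the week 10 adjusted p was 0.053. At day 2 all 8 NDMA-exposed livers, at 3.86, 5.64 and 9.71, lay above all 7 saline livers, at 0, 1.47 and 2.31, but the mean was below 5. How many of all genes separated in this way was not counted. The fit without that filter gave 1.68 ± 0.32 (adjusted p = 0.00049). At day 5 the log2 fold change of 0.90 ± 0.38 did not pass (adjusted p = 0.095) and did without saline liver D389024 (1.24, adjusted p = 0.014). At month 10 Ier3 was too low to test, with medians of 3.29 and 4.63.

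Egr1, Ier2 and Myc were tested at all 5 times in Mgmt-/- livers and called at none. Egr1, an early zinc finger factor driven by serum response factor, had saline medians of 14.5, 17.6, 17.2 and 9.87 normalized counts from day 1 to week 10, against NDMA medians of 27.1, 20.5, 23.5 and 9.40, and at month 10 it ran from 1.85 to 24.1 against 4.64 to 86.2. Its log2 fold changes lay between 0.44 and 0.85, with adjusted p between 0.11 and 0.62, and at day 2 it passed after scaling to equal library totals (0.69, adjusted p = 0.028). Ier2, an early nuclear protein, had saline medians of 34.9, 30.6, 28.1, 32.2 and 24.6 and NDMA medians of 36.7, 31.1, 21.0, 34.7 and 27.8, and the ranges overlapped each time. At day 5, 5 of 8 NDMA-exposed livers lay below the lowest saline liver and 0 above the highest. Its log2 fold change was 0.04 ± 0.17 at day 1 and lay between -0.43 and 0.09 over the 5 times, with adjusted p of 0.16 or more. Ier2 was one of the better measured members, with at least 10.9 normalized counts in every Mgmt-/- liver. Myc, a factor that drives growth and ribosome production, gave log2 fold changes between 0.17 and 0.89 with adjusted p of 0.21 or more. Its spread between livers was wide, and at day 5 the saline livers ran from 4.93 to 113 with a median of 11.4 against 9.57 to 36.4 with a median of 18.1 after NDMA.

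**Figure D3:**
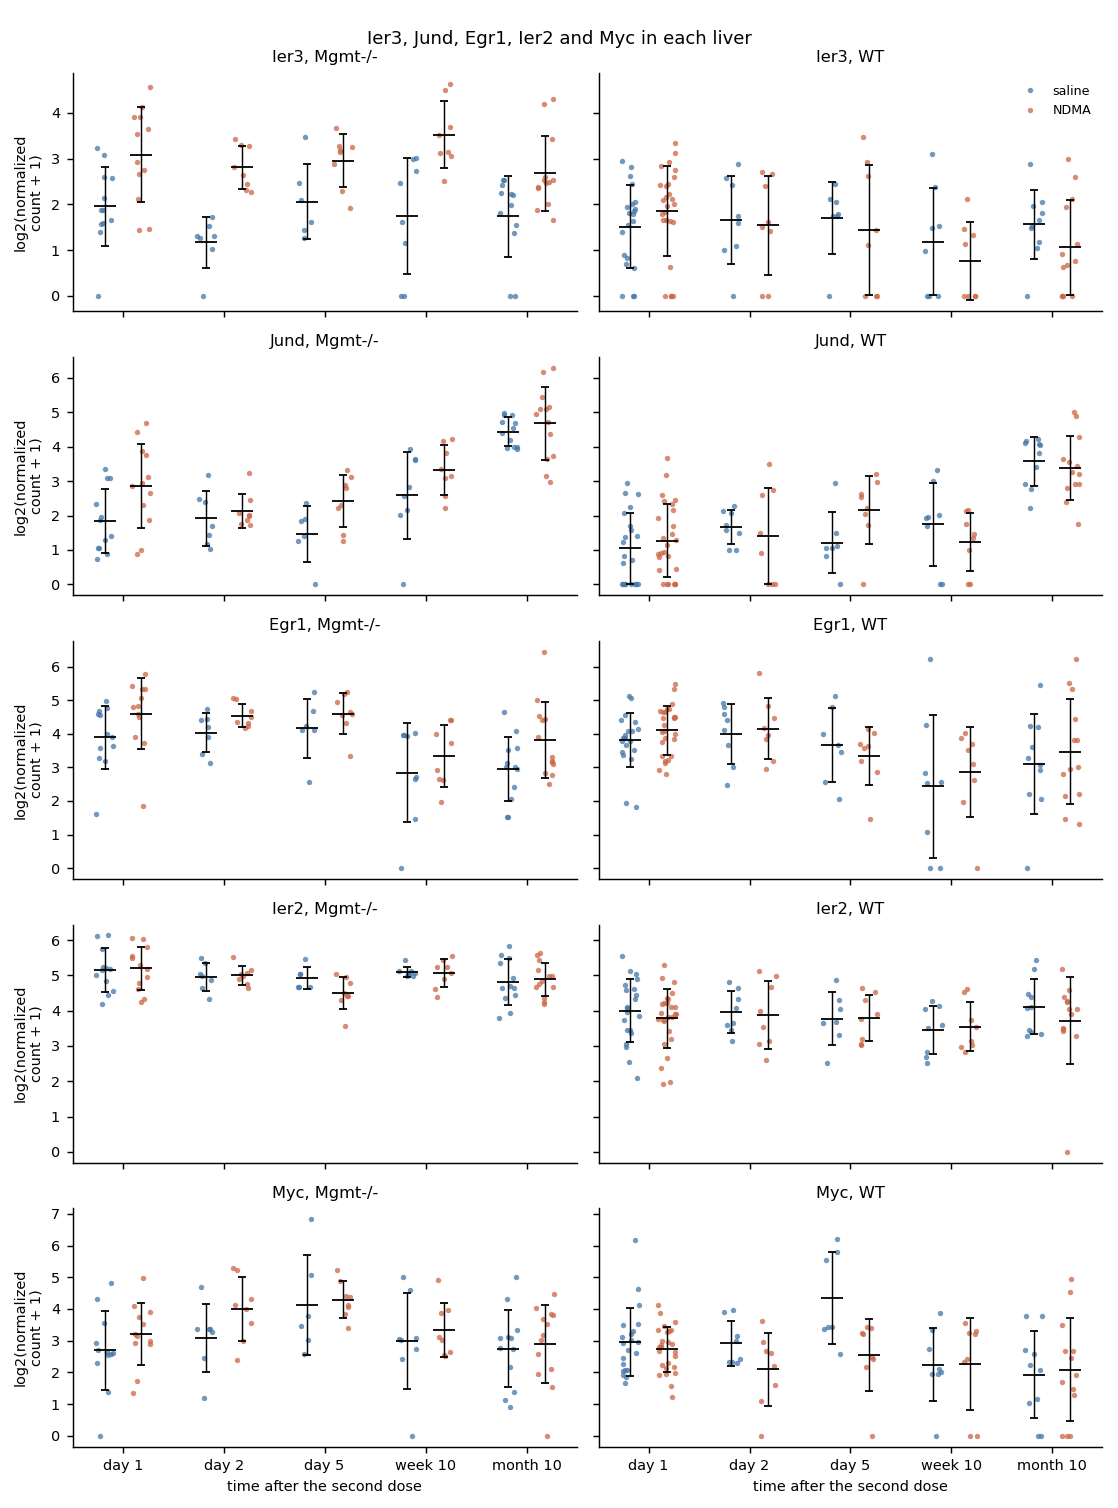
Ier3, Jund, Egr1, Ier2 and Myc in every liver as log2(normalized count + 1) at 5 times after the second dose, Mgmt-/- on the left and WT on the right, each genotype on its own scale. Points are livers and bars are the mean ± SD of the log2 values; in Mgmt-/- livers the Ier3 points of saline and NDMA separate at day 2, the Ier2 points overlap at every time, and in WT livers 3 saline livers at day 5 stand high for Myc.

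In WT livers no member was called at day 1 (0 of 6 tested, against 9.19% of all genes called in either direction by limma), day 2 (0 of 6, 6.23%), week 10 (0 of 5, 0.0249%) or month 10 (0 of 7, 0% of all genes). At an unadjusted limma p under 0.05 there were 3 members at day 1, beside 2917 of all 9028 genes tested. At the other 3 times there were 0 members, beside 1806 of 8568, 350 of 8048 and 757 of 9254 genes. At day 1 edgeR called 1 member, and 471 genes higher and 335 lower of 8542. At the other 3 times edgeR called 0 members, with 414 genes higher and 453 lower of 6009 at day 2 and 0 genes at week 10 and month 10. Median depth in WT livers was 1636762 reads after saline and 900314 after NDMA at day 2, and 1506105 and 950371 at day 5. At day 1, week 10 and month 10 the NDMA median was the higher. The part of depth in the lack of calls was not tested. Klf6 came nearest at day 1, at 6.21, 19.4 and 38.9 normalized counts after saline and 11.0, 23.2 and 60.1 after NDMA. Its log2 fold change of 0.53 ± 0.17 had an adjusted p of 0.017 but lay under the threshold for size. Junb at day 1 ranged over 0, 7.58 and 89.6 against 0, 11.6 and 109, with an estimate of 0.54 ± 0.21 (adjusted p = 0.067). It was the member that edgeR called (0.66, adjusted p = 0.017). Jun ranged over 0, 6.35 and 21.3 against 1.38, 8.65 and 20.4, with an estimate of 0.51 ± 0.25 (adjusted p = 0.14). The groups overlapped for all 3 genes. After day 1 the estimates of Klf6 in WT livers were 0.49, 0.25, 0.05 and 0.10, with SE of 0.25 to 0.31, and those of Junb were 0.29, 0.06, -0.01 and 0.47, with SE of 0.32 to 0.42. Jun had estimates of -0.08, 0.42 and -0.29 at day 2, day 5 and month 10 (adjusted p of 0.68 or more) and was too low to test at week 10, with medians of 3.90 after saline and 3.27 after NDMA.

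The remaining members gave no call in WT livers apart from Myc at day 5. The estimates of Egr1 over the 5 times were 0.30, 0.16, -0.26, 0.42 and 0.54 (adjusted p of 0.36 or more), with SE of 0.22 to 0.69. Those of Ier2 were -0.21, -0.08, -0.01, 0.10 and -0.50 (adjusted p of 0.41 or more), with SE of 0.17 to 0.37. Those of Myc at the times other than day 5 were -0.20, -0.82, 0.01 and 0.30 (adjusted p of 0.36 or more). Jund could be tested at month 10 alone (-0.23 ± 0.33, adjusted p = 0.84), with medians of 14.4 and 8.63, and its earlier medians lay between 0.778 and 4.23. Fos was too low to test at any time, with medians of 1.32 after saline and 2.07 after NDMA on day 1, then 4.45 against 2.25 on day 2, 3.18 against 1.67 on day 5, 0.477 against 1.02 in week 10, and 0 in both groups in month 10. Ier3 was too low as well, with medians between 0.596 and 3.16 over the 10 groups, and so was Maff, with medians between 0 and 4.36.

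Myc fell at day 5 in WT livers, the single call among 6 members tested, where 3.61% of all genes were called and 1.39% were called lower. Without the 1 NDMA library under 300000 reads, genes called higher and lower at this time went from 192 and 120 to 474 and 320, and at day 2 the like library moved them from 285 and 249 to 461 and 410. Myc ranged over 5.03, 9.83 and 72.4 normalized counts in 7 saline livers and over 0, 6.45 and 9.80 in 8 NDMA-exposed livers. No NDMA-exposed liver exceeded the saline median. The log2 fold change was -1.89 ± 0.51 (adjusted p = 0.040). The 3 male saline livers were at 45.3, 54.1 and 72.4 and the 4 female saline livers between 5.03 and 9.83, and males and females of this group were in different library runs, so that sex and run cannot be told apart. The difference between the sexes in the NDMA effect was -2.17 ± 0.91 (limma, adjusted p = 0.77). The call was not made with treatment as the single term (adjusted p = 0.14) or with 10 of the 15 livers left out in turn (0.013 to 0.14 over all 15).

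The difference between the genotypes in the NDMA effect was tested directly, on reads with edgeR. Klf6 was the single member called, at week 10, where the log2 fold change in Mgmt-/- livers exceeded that in WT livers by 1.40 ± 0.44 (adjusted p = 0.043, 7.13% of all genes called). At month 10 the difference for Klf6 was 1.00 ± 0.29 (adjusted p = 0.062, with 0 members called and 1.58% of all genes). Jun differed by 1.45 ± 0.39 at day 1 (adjusted p = 0.056, 0.26% of all genes) and Junb by 1.24 ± 0.43 at day 5 (adjusted p = 0.11, 2.51% of all genes). Fos differed by 1.19 ± 0.52, 2.14 ± 0.91 and 2.46 ± 0.93 at day 1, day 2 and day 5 (adjusted p = 0.34, 0.16 and 0.16), with 7.98% of all genes called at day 2. On the log2 values with limma the week 10 term of Klf6 was not called (1.47, adjusted p = 0.062), and Fos at day 2 was (2.75 ± 0.77, adjusted p = 0.026). No member passed with both tools at any time, so a member called in Mgmt-/- livers and not in WT livers is not shown to differ between them. At day 2, day 5 and week 10 no library run held both genotypes, so genotype and run cannot be told apart at those times.

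Both sexes were in every group, and the NDMA effect was compared between them within each genotype and time. In WT livers at day 2, day 5 and week 10 all males were in run 200710Eng and all females in run 200724Eng, so sex and run cannot be told apart in these 3 comparisons. No member was called in any of the 10 comparisons (limma, lowest adjusted p 0.21), where the percentage of all genes called was 0, 0, 0, 0.114 and 0.338 over the 5 times in Mgmt-/- livers and 0 at each time in WT livers.

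Levels differed between library runs for a large share of all genes, the members among them. At day 1 in Mgmt-/- livers Junb had medians of 14.7 after saline and 31.0 after NDMA in run 191212Eng (8 and 8 livers) and of 82.0 and 120 in run 200803Eng (4 and 4 livers). In WT livers the saline and NDMA medians of Junb were 8.09 and 15.3 in run 191212Eng, 65.3 and 70.0 in run 200803Eng and 2.07 and 3.53 in run 210901Eng. In run 200803Eng the median Junb was higher than in the other runs under both treatments and in both genotypes. A run effect was called in Mgmt-/- livers at day 1 for 6 of 9 members, Fos, Jun, Junb, Jund, Ier2 and Myc (limma F test, 44.9% of all genes). In WT livers it was called for 4 of 6 at day 1, Jun, Junb, Ier2 and Klf6 (62.4% of all genes), a share near that of all genes, and for Junb at month 10 (3.34% of all genes). What differed between the runs is not given in the sources used here. Jun in Mgmt-/- livers rose within each run alone, by 1.69 in run 191212Eng (adjusted p = 2.0e-05) and by 2.05 in run 200803Eng (adjusted p = 0.0020). Within run 200803Eng alone, Junb (0.61, adjusted p = 0.17), Jund (1.46, 0.087), Ier3 (2.00, 0.066) and Klf6 (0.89, 0.10) kept a positive estimate and were not called with 4 livers in each group.

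**Figure D4:**
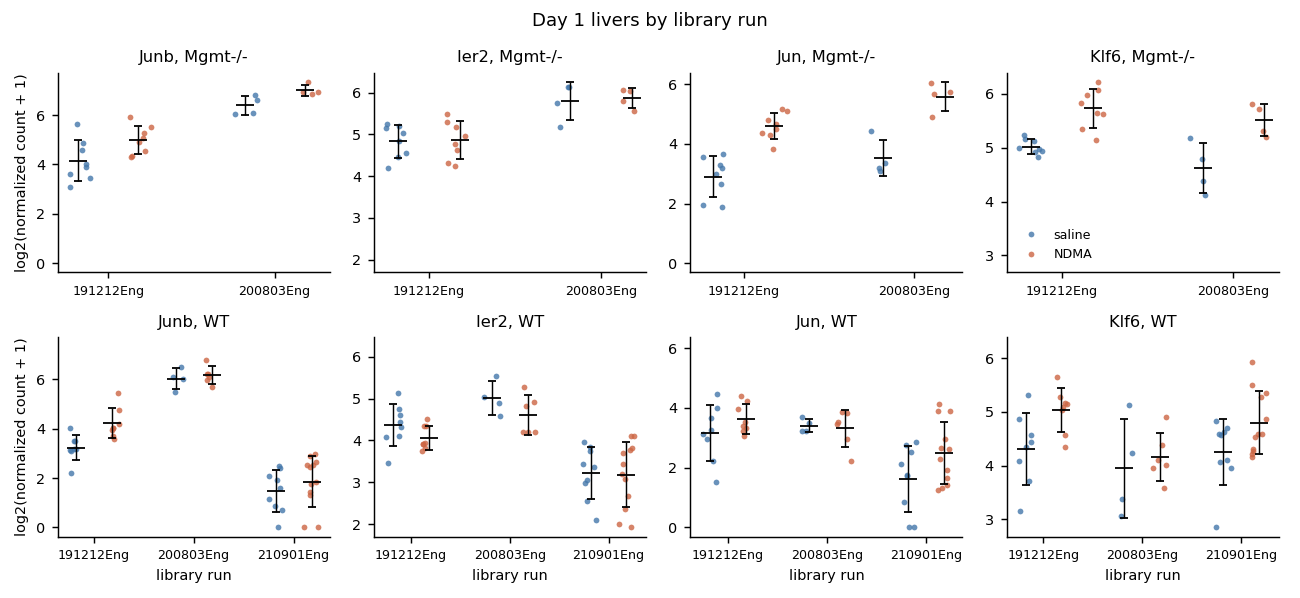
Junb, Ier2, Jun and Klf6 at day 1 as log2(normalized count + 1), split by library run, in Mgmt-/- and WT livers on separate scales. Points are livers and bars are the mean ± SD of the log2 values; Junb and Ier2 sit higher in run 200803Eng under both treatments, with Junb medians of 82.0 and 120 in Mgmt-/- livers, and the NDMA points of Jun lie above the saline points in both Mgmt-/- runs.

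How the members varied from liver to liver was described by the deviation of each liver from the mean of its own treatment, time, sex and run. Over 94 Mgmt-/- livers Fos went with Ier3 (Pearson's r = 0.40, Spearman's rho = 0.40, permutation adjusted p = 0.0081 and 0.0043) and with Jun (r = 0.39, rho = 0.41, permutation adjusted p = 0.0081 and 0.0043). Without the 2 livers farthest out in Fos the values of r were 0.39 and 0.34 (permutation adjusted p = 0.026 for Jun). Junb gave r = 0.29 and rho = 0.29 (permutation adjusted p = 0.055 and 0.043), and r lay between 0.01 and 0.23 for the other 6 members. Egr1, at r = 0.22, passed without those 2 livers (r = 0.27, permutation adjusted p = 0.032). With a pseudocount of 5 it did not pass without them (r = 0.21, permutation adjusted p = 0.12). At that pseudocount Junb passed over all 94 livers (r = 0.32, rho = 0.32, permutation adjusted p = 0.017 and 0.018). Of 9 relations with Fos in WT livers none passed (116 livers, highest r = 0.18 for Ier3, permutation adjusted p = 0.56), where Fos had a median of at most 4.45 normalized counts in any group. Fos rests on few reads per liver, and depth was not a term in these relations.

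**Figure D5:**
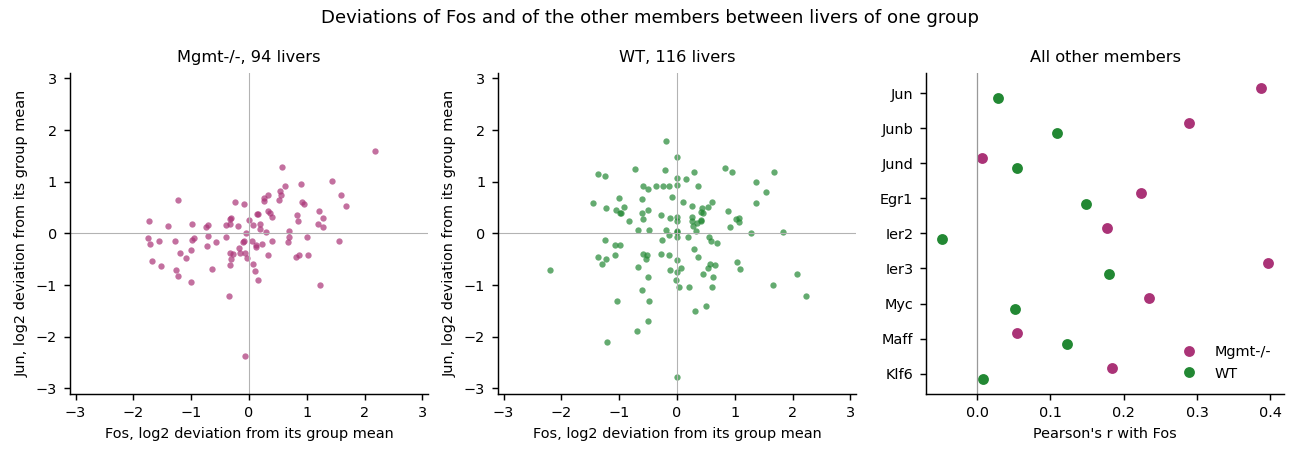
Deviation of Fos against that of Jun, on the log2(normalized count + 1) scale, from the mean of livers of the same treatment, time, sex and run, and Pearson's r of Fos with each of the 9 other members. Points are livers; in 94 Mgmt-/- livers r was 0.40 for Ier3 and 0.39 for Jun, and in 116 WT livers the highest r was 0.18.

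The 10 genes whose deviations were most like those of Fos over the 94 Mgmt-/- livers, out of 10093 genes, were Il1b (r = 0.53), Dusp1 (0.45), Icam1 (0.45), Procr (0.44), Idua (0.43), Btg2 (0.41), Smad6 (0.40), Capzb (0.40), Ier3 (0.40) and Zfp36 (0.39). Jun came eleventh. Dusp1, Btg2, Ier3 and Zfp36 are themselves early response genes, Dusp1 encoding a phosphatase of MAP kinases and Zfp36 a protein that destabilizes short-lived messages. In WT livers the gene most like Fos was Scoc (r = 0.41 over 116 livers and 9085 genes), and none of those 10 genes was among its first 10. The genes most like Myc were led by Cnn2 (r = 0.63) in Mgmt-/- livers and by Tcf21 (r = 0.58) in WT livers, and no other member was among the first 10 of either. These are descriptions, over libraries of several runs and unequal depth.

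Upstream, 27 MAP kinases and serum response factors were followed as transcripts. None of the 25 tested in Mgmt-/- livers was called at day 1, and only Rps6ka3 (0.87) and Map2k4 (0.72), both kinases, were higher at day 2. None was called at day 5 or week 10, where 23 were tested each time, and at month 10 Map3k1 (0.77) rose and Map2k3 (-0.60) fell among 26. In WT livers Map2k7 fell at day 1 (-0.64), the single call of this list. The median log2 fold change of these genes in Mgmt-/- livers lay between -0.04 and 0.10 over the 5 times. Of 10 receptors, 1 rose and 2 fell of 9 tested at day 1, 1 rose and 1 fell of 8 at day 2, 1 rose and 2 fell of 9 on day 5, 2 rose and 2 fell of 9 in week 10, and 1 of 9 rose in month 10. The falls were Il6ra (-0.97) and Pdgfra (-0.92) at day 1, Il6ra (-0.80) at day 2, Pdgfrb (-1.003) and Egfr (-0.96) at day 5, and Met (-1.06) and Erbb3 (-0.90) at week 10, when Pdgfra rose (1.31). Tnfrsf12a, the receptor of the cytokine TWEAK and an early growth factor response gene, rose at all 5 times by 2.46, 1.74, 1.87, 2.29 and 1.05 on the log2 scale, and by 1.03 at day 1 in WT livers, where Egfr fell at day 2 (-0.84). Among 12 growth factor ligands, Pdgfa rose at all 5 times (0.99 to 2.00) and Btc at 4 (1.01 to 2.35), out of 4 or 5 tested. In WT livers Pdgfa rose at day 1 (0.79) among 3 tested.

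Of 15 other AP-1 and small Maf genes, 1 rose and 2 fell of 8 tested at day 1 in Mgmt-/- livers, namely Fosl2 (0.95), a Fos family member, Mafg (-0.79) and Maf (-0.68). At day 2 Mafg fell (-0.58) among 7, and at day 5 Fosl2 (1.09) and Batf2 (2.14) rose among 8. None was called at week 10 or month 10, and none at any time in WT livers. With 9.06% of all genes called higher and 8.64% lower at day 1, 1 or 2 calls among 8 genes do not set this list apart. Of 20 other immediate early transcription factors, 3 of 13 tested rose at day 1, Ier5 (1.29), Id2 (0.94) and Id1 (0.88). At day 2 Id1 (1.49), Id2 (1.39) and Klf10 (0.73) rose and Klf9 fell (-0.85) among 11, and at day 5 Klf2 (0.98), Cebpb (0.93) and Id2 (0.69) rose among 12. At week 10 Ier5 (1.86) and Cebpd (0.82) rose and Klf10 fell (-1.29) among 13, and none of 13 was called at month 10. The shares of all genes called higher were 9.06%, 12.4%, 11.1%, 7.27% and 4.75% over the 5 times and hold for each list here. In WT livers the single call of this list was a fall of Bhlhe40 at day 2 (-1.04). Of 21 feedback regulators, a mixed list of early genes of which most restrain a signal, 0 of 13 rose and Spry4 fell (-1.12) at day 1. At day 2 Rgs2 (1.08), Dusp10 (0.90) and Nfkbia (0.76), an inhibitor of NF-kB, rose among 11. At day 5 the count was 5 of 12 higher, led by Rgs2 (2.04) and Rgs1 (1.76), which shorten G protein signals, and Dusp10 (1.20) and Sgk1 (0.92), a kinase that is also in the glucocorticoid list. Rgs2 (1.80) and Sgk1 (1.44) rose among 11 in week 10 and Rgs2 (1.18) and Nfkbia (0.58) among 12 in month 10. In WT livers Spry4 fell at day 1 (-0.68) and Rgs2 rose at day 5 (1.33).

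Downstream, 15 genes with well known AP-1 sites were counted. This list and the other wider lists were chosen with earlier results of these data known. Their counts therefore describe the listed genes and support nothing further, and the part of AP-1 in these changes was not tested. In Mgmt-/- livers 9 of 13 tested rose at day 1, 10 of 13 on each of days 2 and 5, 11 of 13 in week 10 and 6 of 12 in month 10, where 9.06%, 12.4%, 11.1%, 7.27% and 4.75% of all genes were called higher. The median log2 fold changes of the list were 0.98, 1.39, 1.20, 1.62 and 1.15. At day 1 the largest were Mmp12 (3.09), a macrophage elastase, Timp1 (2.98), an inhibitor of metalloproteinases, S100a6 (2.32) and Anxa1 (1.30). At week 10 they were Mmp12 (4.35), Timp1 (4.22), Cd14 (3.78) and Spp1 (3.13). Spp1 fell at day 1 (-0.79) and day 5 (-1.41). In WT livers 6 of 12 rose at day 1, led by Timp1 (1.09) and S100a6 (1.08), then 1 of 11 on day 2, 2 of 11 on day 5, 0 of 11 in week 10 and 0 of 10 in month 10. Of all genes 5.01%, 3.33% and 2.22% were called higher in WT livers at the 3 early times and 4.19%, 2.91% and 1.39% lower. Several of these genes are expressed by macrophages, among them Mmp12, Cd14 and Spp1, and Spp1 is counted among the cholangiocyte markers as well. Of 14 serum response targets of matrix and cytoskeleton, 5 of 9 tested rose at day 1 in Mgmt-/- livers, led by the actin-binding gene Tagln (2.15) and by Acta2 (1.61), followed by 5 of 8, 4 of 8, 6 of 9 and 4 of 10 at the later times. In WT livers Acta2 (1.01) and Tagln (0.89) rose at day 1 and Acta2 (0.99) at day 2. Of 10 early stress genes that also answer to p53, 7 of 10 rose at day 1, led by Cdkn1a (4.42), Mdm2 (2.34), Btg2 (2.27) and Plk2 (2.01), followed by 5 of 8, 5 of 8, 3 of 9 and 5 of 10. In WT livers 4 of 8 rose at day 1, with Cdkn1a at 3.28, 1 of 7 at day 2 and 3 of 8 at day 5. Of 20 Myc targets of growth, 2 of 18 rose at day 1, then 1 of 15 on day 2, 0 of 14 on day 5, 2 of 18 in week 10 and 0 of 19 in month 10, near or below the shares of all genes called higher at these times. Of 10 Myc partners and antagonists, Max (0.59) rose and Mxd4 (-0.70) fell at day 5, the single time with a call in Mgmt-/- livers.

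Other stimuli known to induce these genes were read through their own lists. Of 10 heat shock genes, 1 of 8 tested rose at day 1 in Mgmt-/- livers (Hsp90aa1, 0.85) and none of 8 at day 2, while Hsph1 fell at day 5 (-0.72). In WT livers Hsp90aa1 rose at day 1 (0.58) among 7, the single call of this list. In week 10 Hspb1 (1.52) and Hsp90aa1 (0.74) rose among 9, and none of 9 was called in month 10. Of 10 hypoxia genes none of 7 tested was called at day 1, Vegfa (-1.10) and Ndrg1 (-1.09) fell among 7 at day 2, and Ndrg1 fell (-0.92) among 5 at day 5. In week 10 Ndrg1 rose (1.55) and Vegfa (-1.02) and Bnip3 (-0.60) fell among 7, and none of 8 was called in month 10. In WT livers Ndrg1 (-1.10) and Vegfa (-0.89) fell at day 1. Of 10 glucocorticoid response genes, Lcn2, which is also an acute phase gene, rose at all 5 times by 3.65, 3.87, 4.51, 4.74 and 2.68, while Fkbp5 and Tsc22d3 fell at day 1 (-1.01 and -0.79) and at day 2 (-0.75 and -0.84). At day 5 Sgk1 rose (0.92) and Tsc22d3 fell (-0.59). In week 10 the list had 4 of 10 higher and 0 lower, with Mt2 (2.02), Sgk1 (1.44) and Mt1 (1.37) beside Lcn2, and in month 10 it had 2 of 10 higher, Lcn2 and Mt2 (2.45). In WT livers Lcn2 rose at day 1, day 2 and day 5 (2.34, 1.64 and 1.56), and Fkbp5 (-0.72) fell at day 1 and Pck1 (-0.61) at day 2.

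Markers of the cell types in bulk liver were counted beside the members. Of 10 macrophage markers tested in Mgmt-/- livers, 3 rose and 3 fell at day 1, and 7, 6, 5 and 3 rose at the later times, with Ccr2, a monocyte receptor, at 1.77, 3.43, 2.31, 2.73 and 1.67 on the log2 scale and the Kupffer cell lectin Clec4f at -1.23 at day 1. Their summed median went from 1124 to 1391 normalized counts at day 1, 1093 to 2440 at day 2, 1159 to 2524 at day 5, 844 to 1655 at week 10 and 472 to 789 at month 10, with Lyz2 the most abundant and none of the 10 under a mean of 1. T cell markers rose in 2 of 4 on day 1 and in 5 of 5 on both day 2 and day 5. Their summed median went from 25.7 to 149 at day 2 and from 29.5 to 186 at day 5, with Cd3g the most abundant and Cd3e under a mean of 1. In week 10 none of 2 tested was called, with a summed median of 16.6 after saline and 29.7 after NDMA. In month 10 none could be tested. Neutrophil markers fell in 4 of 7 at day 1 and 5 of 6 at day 5, with S100a8 the most abundant and Ly6g under a mean of 1, and their summed median went from 461 to 289 and from 343 to 81.6. At day 2 they fell in 3 of 6 and rose in 1. In week 10 they rose in 2 of 6, Ngp (2.46) and Camp (2.16), with a summed median of 79.1 after saline and 196 after NDMA, and none of 4 was called in month 10. Hepatocyte markers fell in 3 of 5 at day 1 and at day 2 and in 1 of 5 at day 5 and at week 10, and 1 of 5 rose at month 10. Their summed median went from 302754 to 196701 at day 1, with albumin the most abundant. Cholangiocyte markers, with Spp1 the most abundant, had a summed median of 86.9 after saline and 830 after NDMA in week 10 and of 87.0 and 369 in month 10, and of the 8, of which 1 or 2 could be tested at each time, only Spp1 was called, lower at day 1 (-0.79) and day 5 (-1.41) and higher in week 10 (3.13) and month 10 (2.48). Endothelial markers fell in 6 of 10 and rose in 1 at day 1, with Clec4g the most abundant and a summed median going from 671 to 500, then 2 rose and 2 fell on day 2, 2 rose and 3 fell on day 5, and Lyve1 alone rose in week 10 and in month 10. Stellate cell and fibroblast markers fell in 5 of 9, 4 of 8 and 3 of 9 at the 3 early times, rose in 5 of 9 in week 10, and rose in 3 and fell in 1 of 9 in month 10, with Dcn the most abundant. Red cell markers fell in 6 of 6, 3 of 6 and 6 of 7 at the 3 early times, and none of 5 was called later. Of B and plasma cell markers, Cd79b fell at day 1 (-0.79) and Jchain rose at week 10 (2.26). Of 10 proliferation markers, 2, 5 and 2 of 10 rose at day 1, day 2 and day 5, 4 of 7 rose at week 10 and 1 of 6 at month 10. In WT livers macrophage markers changed too, 5 rising and 1 falling of 10 at day 1, 2 and 2 at day 2 and 2 rising at day 5. T cell markers rose there in 2 of 3, 2 of 4 and 2 of 4 at the 3 early times, led by Cd3d at day 1 (1.19) and day 5 (2.39) and Cd8b1 at day 2 (1.97). Stellate cell and fibroblast markers fell in 4, 2 and 1 of 8, with Reln at -1.90 on day 1 and -1.80 on day 2, and endothelial markers fell in 3 and 1 of 10 at the first 2 times. Ltf (0.90) and Spp1 (0.65) rose at day 1 and Alb fell at day 2 (-0.92), and no marker of these lists was called at week 10 or month 10 in WT livers. The part of these cell types in the changes of Fos, Jun, Junb and Klf6 was not tested.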

How the data were processed

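The authors mapped 3′ digital gene expression reads to GRCm38/mm10 with STAR, took gene counts from ESAT, and applied DESeq2 size factors to each genotype alone. The deposited values are therefore a signal, normalized counts on a separate scale for each genotype. Tool versions and the gene annotation are not given in the sources used here. Values were whole multiples of 1 step per library in all 213 libraries (100% of values within 0.01), so whole reads were recovered for edgeR and for depth. The rows used were those of the 10 symbols, and the 10 members and the wider lists were chosen with earlier results of these data known. Groups came from the labels, 1 labelled Mgmt-/- saline liver had no column and was not analysed here, and no 2 libraries agreed within sampling noise.

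NDMA was compared with saline in each genotype and time with limma 3.58.1 (trend, robust, R 4.3.3) on log2(value + 1), with sex and library run as terms where they could be fitted, on genes whose mean was 5 or more, without Mgmt-/- saline day 5 libraries with Kap over 1000. A fold change on this scale understates the change of low genes. Genotype by treatment terms came from the quasi-likelihood test of edgeR 4.0.16 with TMM on reads. Tests are two-sided with Benjamini-Hochberg adjustment, a call needs an adjusted p under 0.05 and, for NDMA against saline, an absolute log2 fold change over 0.58. Correlations used 100000 permutations within groups. All 10 members were to be named in every comparison of NDMA with saline (low ones by their medians), with at most 4 called genes of each wider list, those with the largest change. The scripts were tested on simulated data. Alternatives were a pseudocount of 0.5 or 5, a filter at a mean of 20 or none, treatment alone, equal totals, edgeR, single runs, shallow or mislabelled libraries left out, the libraries with kidney transcripts kept, and each liver left out in groups of up to 8; edgeR over the same genes as limma was added after seeing the data. Figures were drawn with Python 3.11.15 and matplotlib 3.10.9.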

Additional observations from a re-analysis of the deposited data

Results flagged for a closer look

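In groups of 4 to 10 livers, a liver stood far from the others of its group for 8 of the 130 member and group pairs looked at, and the limit used, from Dixon's test, is one that chance passes in about 1 in 20 groups. Jund in Mgmt-/- NDMA day 2 liver D389053 was at 8.50 normalized counts with the next at 4.44. Ier3 in Mgmt-/- saline day 2 liver D389006 was at 0, with the next at 1.03. Jun in Mgmt-/- NDMA week 10 liver D209005 was the lowest of its 8 at 15.8, with the next at 26.9, and it is the one NDMA-exposed liver within the saline range. Ier2 in Mgmt-/- saline week 10 liver D209026 was at 42.3, with the next at 33.9. Jund in WT NDMA day 5 liver D215013 was at 0, with the next at 2.30. Ier3 in WT saline day 5 liver D215010 was at 0, with the next at 2.34. Myc in WT NDMA day 5 liver D215014 was at 0, with the next at 3.47; this library held 202626 reads, one of the 4 under 300000, and without it the Myc change was -1.59 (adjusted p = 0.013). Maff in WT saline month 10 liver D202024 was at 0, with the next at 3.16.

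Among differences between groups, the NDMA effect on Klf6 at week 10 was larger in Mgmt-/- than in WT livers by 1.40 on the log2 scale (edgeR, adjusted p = 0.043), which limma did not call (1.47, adjusted p = 0.062) and in which genotype and library run cannot be told apart. The effect on Jun in Mgmt-/- livers was larger at day 1 than at month 10 by 1.46 (limma, adjusted p = 0.0065).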

How the results depend on the processing

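No paired analysis was possible because the replicate identifiers are unique to each liver and the groups share none. Of the counts of members called, 187 values under alternatives stayed within 1.5 times the reported count and 28 did not. A mean of at least 20 left 3, 2, 2 and 1 members called at day 1, day 2, day 5 and week 10 in Mgmt-/- livers, since fewer members were then tested. In Mgmt-/- livers at day 1 edgeR called 3. It differs from limma in test, scaling and gene filter (8409 genes tested against 10055). Over the same 10055 genes as limma, edgeR called 898 of all genes higher and 907 lower, where limma called 911 and 869. Test and scaling changed together in that fit too, so the part of each in the lower count of members was not tested. Run 200803Eng alone gave 1 there, with fewer livers. At month 10 treatment alone left 1. In WT livers at day 1 equal totals, edgeR and edgeR over the same genes as limma each called 1 member (Junb), and run 191212Eng alone called 2 (Junb, 0.98, and Klf6, 0.72). The WT day 5 call of Myc was lost (0 members) with a pseudocount of 0.5 and with treatment alone, and ranged from 0 to 1 with livers left out in turn. With a mean of at least 20 Myc, at a mean of 17.0, was not tested, which left 0 members called. With its own gene filter (6091 genes tested against 8654) edgeR called 0 members as well. Over the same genes as limma, edgeR kept the call of Myc (-2.17, adjusted p = 0.00072). The run term at month 10 in WT livers held for 2 members with a pseudocount of 5. With limma the genotype by treatment term held for 1 member at day 2 (Fos) and 0 at week 10. The cause of the last 2 was not tested. For single members 413 values kept direction and side of the threshold, 25 were no longer called and 9 became called, and 1 reversed, Jun in WT day 1 livers of run 200803Eng alone (-0.093). A further 42 member and comparison pairs were never called, and 19 of them changed sign under some alternative.

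Scaling every library to the same total moved the median log2 fold change of all genes in Mgmt-/- livers to 0.20, 0.20, 0.17 and 0.24 from day 1 to week 10, and in WT livers to -0.11 at month 10. All genes called higher and lower then numbered 1634 and 511 at day 1 in Mgmt-/- livers, against 911 and 869, then 1682 and 412 against 1170 and 710 at day 2, 1451 and 412 against 1037 and 624 at day 5, and 1160 and 177 against 704 and 376 at week 10. In WT livers they numbered 524 and 275 against 452 and 378 at day 1 and 387 and 181 against 285 and 249 at day 2. With the 2 libraries with kidney transcripts kept, genes called higher and lower at day 5 in Mgmt-/- livers numbered 699 and 306. Depth limits Fos, Jund, Ier3 and Maff most, since many of their values rest on fewer than 10 reads.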
